A study of Mus musculus with 12 samples.

Results

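The genes described here are 10 components of the mouse microRNA (miRNA) pathway, read as targets of the small RNAs they serve: Drosha, Xpo5, Dicer1, Ago1, Ago2, Ago3, Tnrc6a, Tnrc6b, Tnrc6c and Ddx6. Rows were taken by gene symbol from the deposited peak annotation, which gave 618 of 250567 peaks over all lists, on 10 of 11356 genes with a peak. The data come from chimeric Ago cross-linking and immunoprecipitation of adult C57BL/6 mouse forebrain, in which a small RNA is ligated to the RNA it is bound to, so that a single read names both partners. The 12 libraries were pooled by the authors into 4 peak lists: anti-Ago2 on whole forebrain, replicates 1 to 4 (reps 1-4, 4 libraries), anti-Ago2 on whole forebrain, replicates 5 to 7 (reps 5-7, 3 libraries), anti-myc on tagged Ago2 of excitatory neurons (excitatory, 3 libraries) and control immunoglobulin G (IgG, 2 libraries). Because libraries were pooled before calling, values per list come without any replicate spread.

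The tag sits on Ago2 (Eif2c2 in the older nomenclature) at the Rosa26 locus, in the B6.Cg line with the allele Gt(ROSA)26Sortm1(CAG-GFP/Eif2c2) of laboratory code Zjh/J. It was switched on by B6Tg(Camk2a-Cre/ERT2), whose Camk2a promoter drives Cre in forebrain excitatory neurons. The labels give tamoxifen at 2 mg a day by intraperitoneal injection for 5 days, a wait of 14 to 21 days and harvest at 10 to 12 weeks, with 3 rounds of ultraviolet cross-linking, for every sample. Mice were matched for sex and age. Whether the anti-Ago2 and IgG mice also carried the tagged allele, and whether a library is 1 mouse, is left unstated in the labels. Libraries were read at 150 bases, paired, to a stated depth of 61 to 138 M reads per sample.

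In the canonical pathway Drosha cuts the primary transcript in the nucleus, Exportin-5 (Xpo5) carries the hairpin to the cytoplasm and Dicer1 cuts it to a duplex, of which 1 strand is loaded into an Argonaute protein. Argonaute pairs with targets mainly through the miRNA seed and recruits a GW182 protein (Tnrc6a, Tnrc6b or Tnrc6c), which binds the deadenylases, while the helicase Ddx6 links the complex to translational repression and decapping. Components of this pathway can themselves be miRNA targets. miR-124, miR-9 and miR-128 are miRNAs of neurons, and let-7, miR-26, miR-29 and miR-30 are families found in many tissues.

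The results turn on a small set of miRNAs, whose mature sequences are shown so that shared seeds can be read. Bases 2 to 8, the seed, are in capitals. The sequences are from RefSeq (GRCm38.p6), where 74 of the 84 small RNAs with a peak on these genes were matched by name. miR-124-3p is named only.
let-7c-5p: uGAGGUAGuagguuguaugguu
let-7f-5p: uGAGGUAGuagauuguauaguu
let-7a-5p: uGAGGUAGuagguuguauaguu
miR-26a-5p: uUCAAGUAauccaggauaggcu
miR-26b-5p: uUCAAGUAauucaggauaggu
miR-190a-5p: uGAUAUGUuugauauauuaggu
miR-103-3p: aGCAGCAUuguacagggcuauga
miR-107-3p: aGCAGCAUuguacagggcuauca
miR-29a-3p: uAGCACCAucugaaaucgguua
miR-29b-3p: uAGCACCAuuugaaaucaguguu
miR-9-5p: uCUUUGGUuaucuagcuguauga
miR-125b-5p: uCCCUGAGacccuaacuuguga
miR-128-3p: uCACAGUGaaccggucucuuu
miR-30c-5p: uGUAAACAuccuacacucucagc
miR-138-5p: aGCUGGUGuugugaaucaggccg
The let-7 names share 1 seed, as do miR-26a with miR-26b, miR-103 with miR-107 and miR-29a with miR-29b. Peaks of such names at 1 place are listed separately in the files and are not independent.

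All 10 genes carried peaks in reps 1-4, and together they held 599 of its 246180 peaks (0.243%, Wilson 95% interval 0.225 to 0.264). In reps 5-7 they held 15 of 3611 peaks (0.415%, 0.252 to 0.684) on 6 genes, and in the excitatory list 4 of 766 (0.522%, 0.203 to 1.33) on 3 genes. None of the 10 IgG peaks lay on these genes, which allows a share of up to 30% by the limit of 3 peaks used here for a count of 0 (27.8% by the Wilson interval). Intervals and limits cover counting error only, and whether reads were counted by molecular identifiers is not stated in the labels. The number of peaks on a gene also follows how much of its RNA a library holds. RNA levels were not analysed here, and in whole tissue fewer cells of a type and less RNA per cell cannot be told apart.

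The GW182 genes were the most heavily targeted members. In reps 1-4, Tnrc6b held 173 peaks of 48 small RNAs, Tnrc6a 104 of 34 and Tnrc6c 99 of 38. Ago2 followed with 76 peaks of 25 small RNAs and Dicer1 with 55 of 27. Ddx6 held 32, Ago3 25 and Ago1 18, and the nuclear steps were at the low end, with 10 peaks on Xpo5 and 7 on Drosha. Counting coding sequence (CDS) and untranslated region (UTR) peaks alone, the members' median was 39 against 5 over the 9672 genes with such a peak, and 38 genes had more than Tnrc6b. For the 61 other pathway symbols described below, those without such a peak counted, the median was 6. The high counts of the members are thus not shared by that wider list.

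**Figure D1:**
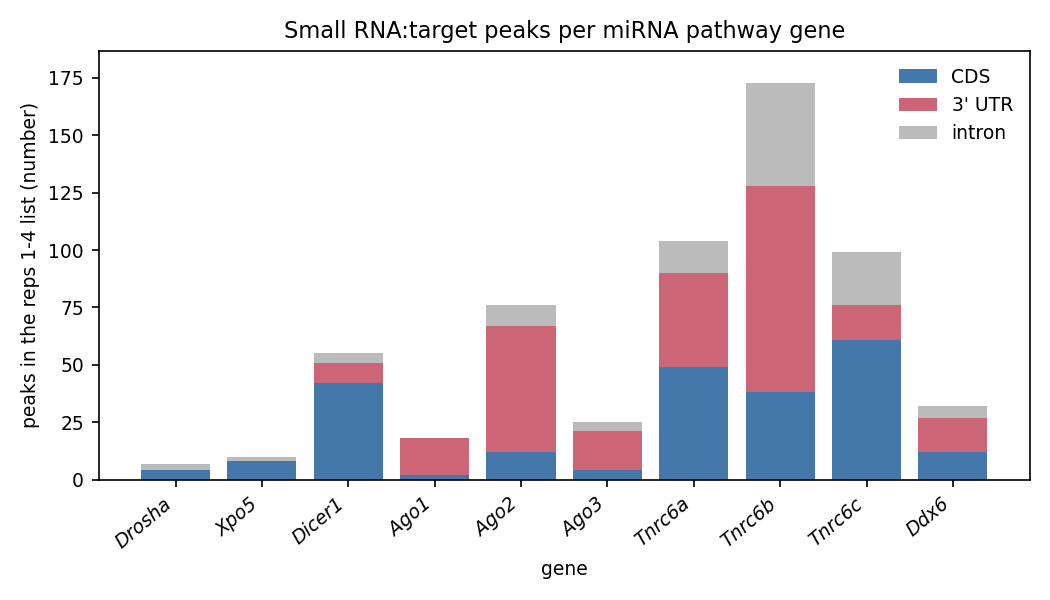
Peaks per gene in the reps 1-4 list (bar height, number of peaks), stacked by annotated region: CDS, 3' UTR and intron. Tnrc6b reaches 173 peaks and Drosha 7, and the CDS makes up most of the Tnrc6c and Dicer1 bars whereas the 3' UTR makes up most of the Ago1, Ago2 and Ago3 bars.

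Over the 599 peaks of reps 1-4, 43.1% (39.2 to 47.1) were annotated to a 3' UTR, 38.7% (34.9 to 42.7) to CDS, 18.2% (15.3 to 21.5) to introns and 0 to a 5' UTR. Over all genes of the list the shares were 18.7%, 22.6% and 47.6%, with 0.956% in 5' UTRs. The members differed among themselves in where the peaks lay. Among CDS and UTR peaks, the 3' UTR held 16 of 18 on Ago1, 55 of 67 on Ago2, 17 of 21 on Ago3 and 90 of 128 on Tnrc6b. It held only 15 of 76 on Tnrc6c, 9 of 51 on Dicer1, 0 of 8 on Xpo5 and 0 of 4 on Drosha. Tnrc6a (41 of 90) and Ddx6 (15 of 27) lay between, and the share over all genes was 44.2%. Per kilobase of annotated 3' UTR, Tnrc6a held 17.5 peaks, Tnrc6b 7.75, Tnrc6c 5.80, Ago2 4.97, Ddx6 3.54, Ago1 3.48, Dicer1 2.34 and Ago3 1.33. With overlapping peaks merged, the values were closer: Tnrc6a 6.83, Tnrc6b 4.74, Tnrc6c 3.09, Ago2 2.44, Ago1 2.39, Ddx6 1.89, Dicer1 1.04 and Ago3 0.942.

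Part of the intron peaks lay at intron ends. Of the 109 intron peaks, 29 reached or passed an end of their intron. In 29 pairs, peaks of 1 small RNA lay to the left and right of an intron, or of a gap between neighbouring exons with peaks, with the facing ends of the peaks within 10 bases of the gap's ends. These pairs held 55 of the 599 peaks (9.18%), and 20 of them were annotated as intron. An example is Tnrc6a, where miR-26a-5p peaks with scores of 162 and 167 stood on either side of a 1703-base gap. On Tnrc6c, miR-29b-3p peaks scored 33 and 34, miR-29a-3p peaks 31 and 31 and miR-29c-3p peaks 18 and 18 across a 2187-base gap. The score is a whole number given by the authors without a stated definition. Its lowest value is 3, the minimum number of reads set in the calling.

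Drosha, the nuclear nuclease, had weak coverage throughout. Its 7 peaks scored 3 or 4 and did not overlap one another, with 4 of them in CDS, from miR-124-3p, miR-708-5p, miR-125b-5p and miR-128-3p. The 2 miR-708-5p peaks, in CDS and intron, were 1 of the pairs described above, across a 3263-base gap. Xpo5, the export receptor, had 10 peaks at 10 sites. Its highest score, 15, was a miR-26a-5p peak in an intron, and its highest in CDS was 8, for miR-127-3p, ahead of 5 for miR-124-3p and 4 for miR-26a-5p. miR-26a-5p had the most Xpo5 peaks, 4 of 10. No peak of either gene was found in reps 5-7 or in the excitatory list.

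Dicer1 was marked by 1 dense stretch of coding sequence. The region chr12:104702995-104703105 (mm10, minus strand) lay inside a 780-base CDS exon and carried 15 peaks of 14 small RNAs, the most of any member site, with scores adding up to 332. Its leading peak, miR-103-3p, scored 131 at chr12:104703046-104703064. No other of the 576 CDS and UTR peaks of miR-103-3p in the list scored higher. miR-107-3p, with the same seed, scored 37 at the same place. The same miR-103-3p interaction was present in reps 5-7 with a score of 8 and had no peak in the excitatory list. Further peaks of the stretch were miR-101a-3p (41), miR-218-5p (39), miR-128-3p (25) and miR-30c-5p (17). Dicer1 is a known target of the miR-103/107 family.

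Downstream in the same Dicer1 exon lay 2 let-7 sites. At chr12:104702689-104702717, 8 let-7 names had a peak, with scores adding up to 60 and a highest value of 14 for let-7a-5p. At chr12:104702800-104702826, 4 let-7 names had scores adding up to 30. In all, let-7 gave 16 of the 51 CDS and UTR peaks of Dicer1 (31.4%), a share exceeded by 42 of the 729 genes with at least 30 such peaks. The 3' UTR of Dicer1 held 9 peaks, led by miR-29b-3p (29), miR-26a-5p (25) and miR-29a-3p (25). The small RNA with the most Dicer1 peaks was miR-124-3p, with 7, but none of these scored above 10.

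Among the Argonautes, Ago2, which can cut a perfectly paired target, carried the most peaks and was the principal let-7 target of the set. Its main site, chr15:73097960-73097997, lay about 8912 bases into the annotated 3' UTR. There let-7c-5p scored 59, let-7f-5p 49, let-7a-5p 48, let-7g-5p 38, let-7b-5p 19, and both let-7d-5p and let-7e-5p 29. In all, 9 names of the let-7 seed (miR-98-5p among them) had a peak there, with scores adding up to 288. Ago2 had 6 let-7 sites in CDS and 3' UTR, and let-7 gave 26 of its 67 CDS and UTR peaks (38.8%, 28.0 to 50.8), against 14.1% over all genes. Of the 729 genes with at least 30 such peaks, 15 had a higher let-7 share.

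None of the Ago2 let-7 peaks was found in reps 5-7 or the excitatory list. The Ago2 peak found again was miR-26a-5p at chr15:73097886-73097903, which scored 40 in reps 1-4 and 3 in reps 5-7. miR-29b-3p (22) and miR-29a-3p (17) shared a further 3' UTR site. Of 77 Ago2 peaks over all lists, 36 lay beyond the RefSeq gene end but within the authors' longer 3' UTR annotation, the main let-7 site included. Because the tagged allele also encodes Ago2, RNA of the transgene and of the endogenous gene could both have been counted in coding sequence. The part of the transgene in these peaks was not tested. Ago2 had no peak in the excitatory list. The limit there for a count of 0, 0.392%, lay above the Ago2 share of reps 1-4, 0.0309%.

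Ago1 and Ago3, which lie next to each other on chromosome 4 and encode Argonautes that share the small RNA pool with Ago2, differed in their let-7 peaks. On Ago1, 5 of 18 CDS and UTR peaks were let-7, with 4 names at 1 site near the start of the 3' UTR and a highest score of 11 for let-7c-5p. On Ago3, 0 of 21 were let-7. miR-124-3p led both: its highest score was 22 on Ago1 and 32 on Ago3, each in the 3' UTR. In Ago3, miR-124-3p had 9 of the 25 peaks, among them a CDS peak with a score of 24, and miR-9-5p had a CDS peak with a score of 23. The excitatory list held 1 Ago1 peak, miR-138-5p in the 3' UTR, at a score of 3. It scored 6 in reps 1-4 and was not in reps 5-7. Ago3 had no peak outside reps 1-4.

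**Figure D2:**
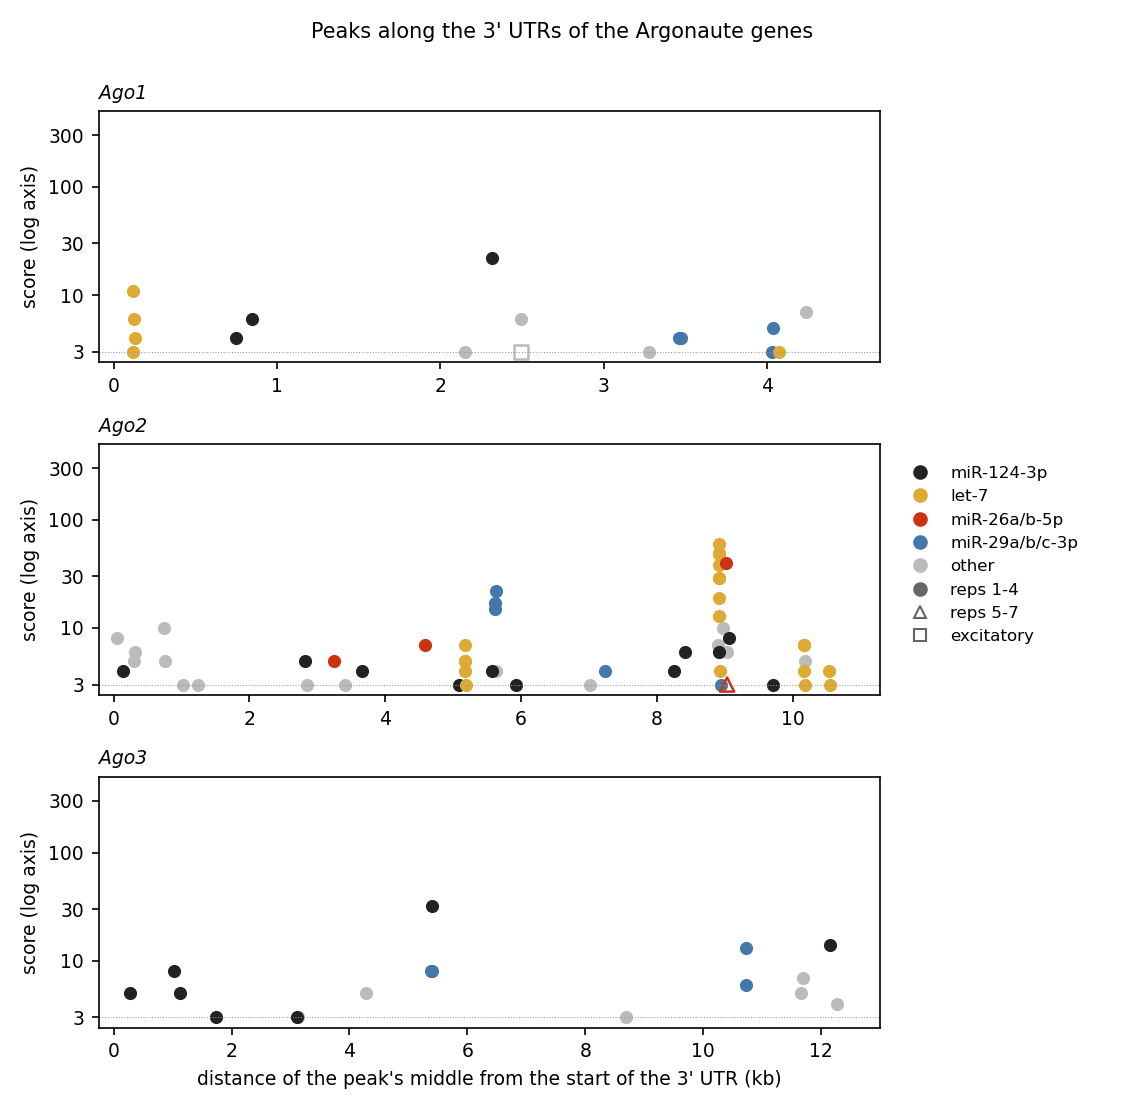
Score (log axis) of each peak against the distance in kilobases of its middle from the start of the annotated 3' UTR, for Ago1, Ago2 and Ago3. Filled circles are reps 1-4, triangles reps 5-7 and squares excitatory, coloured by small RNA. The let-7 peaks stack near 9 kilobases in Ago2, up to a score of 59, and near the UTR start in Ago1, and none is present in Ago3.

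The 3 GW182 genes shared a site in which miR-26a-5p and miR-190a-5p lay together near the start of the 3' UTR. The miR-26a-5p peak stood 149 bases into the 3' UTR of Tnrc6a with a score of 126, 233 bases into that of Tnrc6b with 168, and 574 bases into that of Tnrc6c with 61. All 3 were found again in reps 5-7, with scores of 8, 13 and 5, and none was in the excitatory list. miR-26b-5p, with the same seed, also had a peak at each of the 3 sites, with scores of 12, 16 and 7. At each of the 3 sites a miR-190a-5p peak overlapped the miR-26a-5p peak, with scores of 14, 32 and 28 for Tnrc6a, Tnrc6b and Tnrc6c. miR-190a-5p was a rare partner, with 54 CDS and UTR peaks in the whole list at a median score of 4. The 3 GW182 peaks were its 8th, 3rd and 5th highest. Of the 54, 9 overlapped a miR-26a-5p peak, and 3 of those 9 were these. The overlap was picked out after its values were seen and was not tested.

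**Figure D3:**
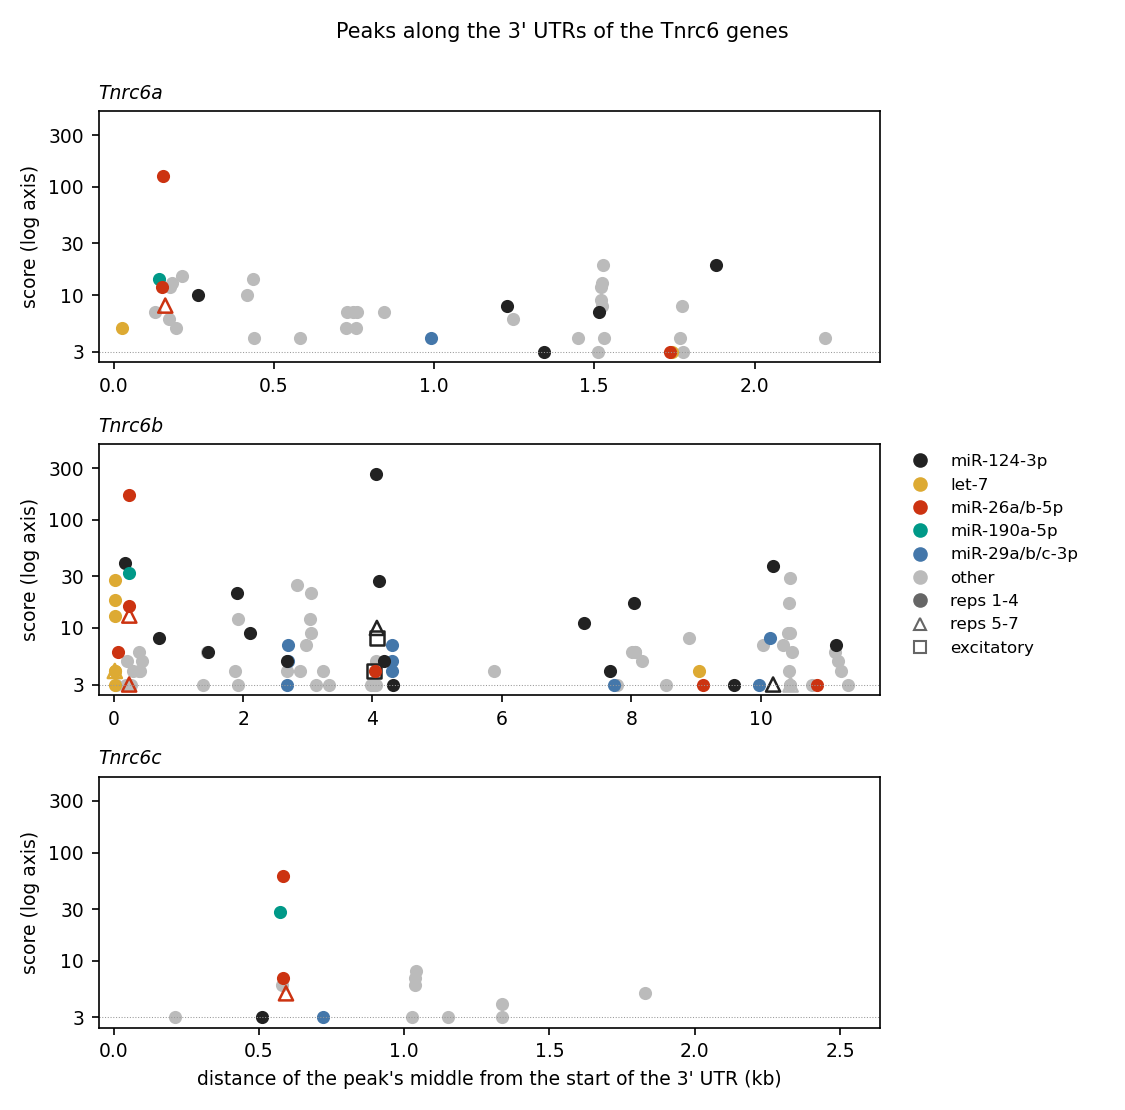
Score (log axis) of each peak against the distance in kilobases of its middle from the start of the annotated 3' UTR, for Tnrc6a, Tnrc6b and Tnrc6c, each on its own distance axis. Filled circles are reps 1-4, triangles reps 5-7 and squares excitatory, coloured by small RNA. miR-26a/b-5p and miR-190a-5p peaks coincide in each of the 3 genes, at scores of 126, 168 and 61 for miR-26a-5p.

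Tnrc6b had the longest annotated 3' UTR of the 3 (11.609 kilobases) and its highest score there, 262, was a miR-124-3p peak 4056 bases in, at chr15:80933534. This interaction scored 10 in reps 5-7 and 8 in the excitatory list, so it was present in all 3 Ago lists. A second excitatory peak of miR-124-3p, 4 bases wide with a score of 4, ended directly before the reps 1-4 site without overlapping it. Other Tnrc6b 3' UTR peaks found again in reps 5-7 were let-7a-5p at the UTR start (18, then 4), miR-26b-5p (16, then 3), miR-124-3p near the distal end (37, then 3) and miR-30d-5p (29, then 3). At the UTR start, 6 let-7 names lay at chr15:80929484-80929504, with let-7c-5p highest at 28. In CDS, miR-124-3p peaks of 122 and 120 lay in a 95-base exon, and 1 of them was found again in reps 5-7 with a score of 5.

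In Tnrc6a the strongest peaks lay in CDS. Within 1 exon of 107 bases, miR-124-3p peaks scored 241 and 223 and a miR-26a-5p peak 156, and a single miR-124-3p peak of reps 5-7, with a score of 7, overlapped both miR-124-3p peaks. The miR-26 family gave 12 of the 90 CDS and UTR peaks of Tnrc6a (13.3%), against 5.36% over all genes, and 23 of the 729 genes with at least 30 such peaks had a higher share. By contrast, let-7 gave 4 of 90 (4.44%). The miR-26 peaks are not independent. Those of miR-26a-5p included pairs across a 1703-base gap (162 and 167) and a 1295-base gap (66 and 156). miR-26b-5p had peaks at the same places, so the miR-26 share counts some places more than once. A distal 3' UTR site at chr7:123194449-123194497 held 8 small RNAs, 5 of them miR-30 names. Tnrc6c had its highest CDS score, 89, for miR-124-3p, found again in reps 5-7 with a score of 4. A second miR-124-3p CDS peak scored 31 and then 3. A Tnrc6c site at chr11:117747177-117747246, at an exon start, held 12 small RNAs, 7 of them let-7 names, with a highest score of 25 for miR-124-3p. miR-124-3p had the most peaks on each GW182 gene: 16 on Tnrc6a, 40 on Tnrc6b and 23 on Tnrc6c.

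Ddx6, the helicase of repression and decapping, had the highest score of any member. A miR-124-3p peak at chr9:44636921-44636933, 431 bases into the 3' UTR, scored 337 in reps 1-4, 16 in reps 5-7 and 6 in the excitatory list. Of the 21946 CDS and UTR peaks of miR-124-3p in reps 1-4, 20 scored higher, and of all 103963 such peaks 46 did. The next highest scores on Ddx6 were 29 for miR-127-5p and 14 for a second miR-124-3p site. In CDS, miR-9-5p scored 11 and miR-27b-3p 10. The 32 peaks of Ddx6 thus held 1 dominant interaction.

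Across the 10 genes, miR-124-3p had the most peaks in reps 1-4, 128 of 599 on all 10 genes. Its share, 21.4% (18.3 to 24.8), was below the 29.3% over all genes, and among CDS and UTR peaks alone it was 19.2% (15.9 to 22.9) against 21.1%. Next came miR-9-5p (54 peaks), miR-26a-5p (40) and miR-125b-5p (30). Of single names with a shared seed, miR-29a-3p had 25 and miR-29b-3p 23, and let-7c-5p had 21 and let-7f-5p 16. miR-128-3p had 20 peaks and miR-30c-5p 15. By seed, let-7 gave 85 peaks on 8 genes, 14.2% (11.6 to 17.2) against 8.81% over all genes. Among CDS and UTR peaks alone the let-7 share was 16.1% (13.1 to 19.6) against 14.1%, an interval that holds the overall share. Both let-7 intervals take names at 1 site as independent, with up to 9 names at a site on Ago2 and 8 on Dicer1. They are therefore too narrow. miR-128-3p was at 3.34% (2.17 to 5.10) against 5.24%, and among CDS and UTR peaks alone at 3.47% (2.18 to 5.49) against 5.08%, an interval that again holds the overall share.

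**Figure D4:**
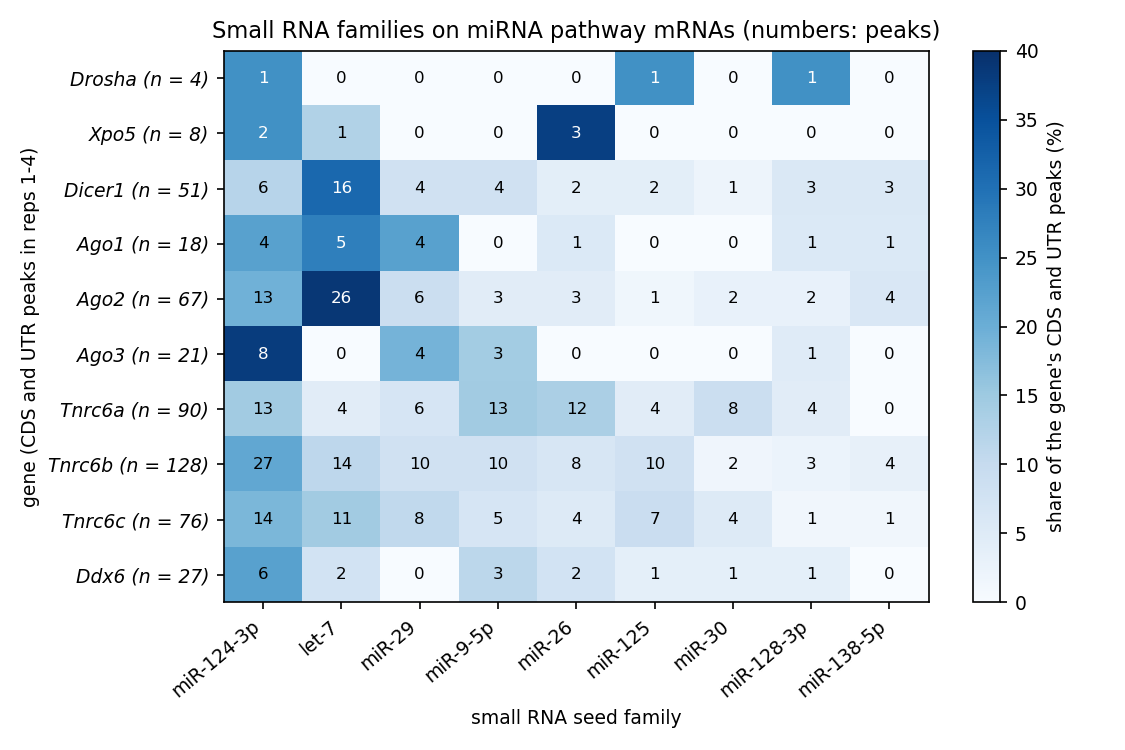
Share of each gene's CDS and UTR peaks in reps 1-4 (colour, percent) by small RNA seed family, with the number of peaks written in each cell and the gene's total beside its name. Families hold the names whose RefSeq mature sequence shares bases 2 to 8. Names without a RefSeq match were counted alone. The miR-30 column therefore leaves out miR-30d-5p (6 CDS and UTR peaks on these genes) and miR-30b-5p (4). The let-7 column is darkest for Ago2 (26 of 67) and Dicer1 (16 of 51) and empty for Ago3 and Drosha.

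Peaks that overlapped on 1 strand were merged into sites. The members had 283 sites with a CDS or UTR peak in reps 1-4, of which 75 (26.5%, 21.7 to 31.9) held at least 2 small RNAs, against 24.9% over all genes. At least 5 small RNAs were present at 21 sites (7.42%, 4.90 to 11.1), against 4.10% over all genes. At least 10 were present at 3 (1.06%, 0.361 to 3.07), on Dicer1, Ago2 and Tnrc6c, against 0.675% over all genes. The median score was 5 for the members' CDS and UTR peaks and 5 over all such peaks of the list. The 10 highest-scoring peaks held 31.7% of the members' summed score.

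Recovery in the smaller lists followed the score. All 15 reps 5-7 peaks on these genes had a counterpart in reps 1-4, defined as a peak with the same small RNA name that shares at least 1 base (100%, 79.6 to 100). Over all genes 87.5% had one. With a reciprocal overlap of 50%, 7 of 15 did. Of the 4 excitatory peaks 3 did by the first rule, against 93.1% over all genes. In the other direction, 17 of the 490 CDS and UTR peaks of reps 1-4 were found in either smaller list (3.47%, 2.18 to 5.49), against 2.41% over all genes. Their scores ran from 6 to 337 with a median of 89, while the other 473 ran from 3 to 167 with a median of 5. Over all genes these medians were 42 and 5. Of the 12 member peaks with a score of 100 or more 8 were found again (66.7%), against 76.7% over all genes.

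**Figure D5:**
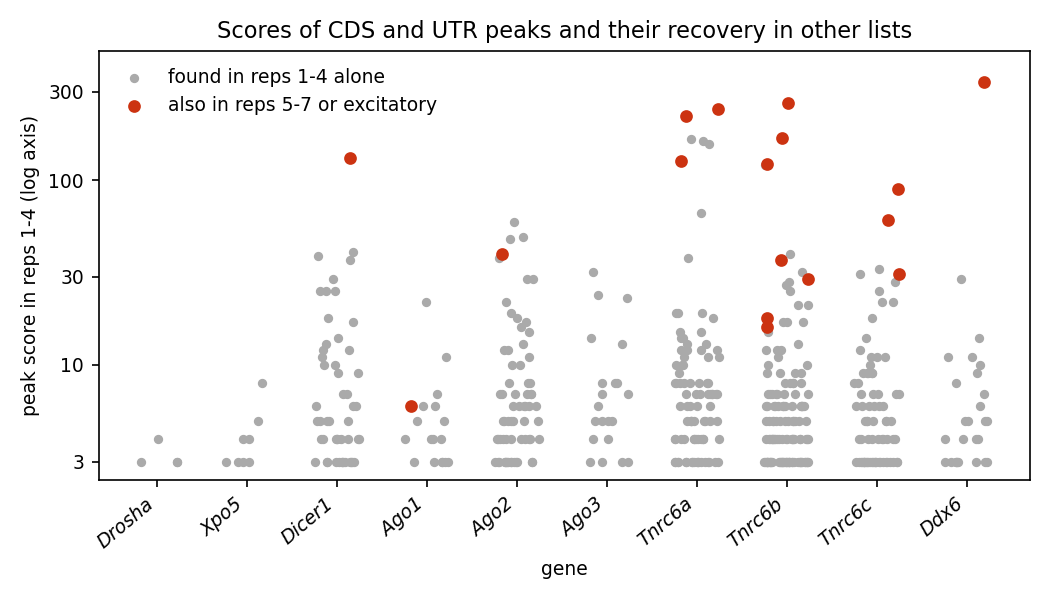
Score in reps 1-4 (log axis) of each CDS and UTR peak by gene, with horizontal jitter. Red points (17 peaks) were also found with the same small RNA in reps 5-7 or the excitatory list, and grey points (473 peaks) were not. The highest peak of Ddx6, Dicer1, Tnrc6a, Tnrc6b and Tnrc6c is red in each case, and Drosha, Xpo5 and Ago3 have no red point.

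Gene shares were compared between lists, asking whether the targeting of any member differed between the 2 anti-Ago2 lists or in excitatory neurons. The comparisons share lists, and each compares 2 pooled lists rather than conditions. Of the 4132 genes tested between reps 5-7 and reps 1-4 with Fisher's exact test and Benjamini-Hochberg adjustment, 55 passed an adjusted p of 0.05 in either direction (1.33%). Of the 9 members with enough peaks, 0 passed, and 1 had an unadjusted p under 0.05, as did 268 of all 4132 genes (6.49%). That gene was Tnrc6b, with 7 of 3611 peaks (0.194%) in reps 5-7 and 173 of 246180 (0.0703%) in reps 1-4, by Fisher's exact test p = 0.0164 and adjusted p = 0.424. The members' median difference was 0.00535 percentage points, and the median over all genes tested was -0.00569. The members' median was -0.00487 with CDS and UTR peaks alone and -0.00680 with 3' UTR peaks alone, against -0.0115 and -0.0239 over all genes, so its sign rested on the peaks counted.

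Between the excitatory list and reps 1-4, 11 of 4103 genes passed (0.268%), and 0 of the 9 members did. None had an unadjusted p under 0.05, against 3.00% of all genes. The members' median difference was -0.0102 percentage points, and that over all genes tested was -0.00772. Ago1 had 1 of 766 excitatory peaks (0.131%) against 0.00731% in reps 1-4 (Fisher's exact test, adjusted p = 1), Ddx6 1 (0.131% against 0.0130%, adjusted p = 1) and Tnrc6b 2 (0.261% against 0.0703%, adjusted p = 1). Between the excitatory list and reps 5-7, 7 of 32 genes passed (21.9%), and no member reached the 10 peaks needed for a test. The excitatory and reps 5-7 lists share 3 library numbers in their calling summaries, and what the numbers stand for is not stated. At 766 peaks, a gene with no excitatory peak could still have a share of up to 0.392% by the limit of 3 peaks, above the reps 1-4 share of every member, so loss of a member in excitatory neurons was not detectable at this depth. In the excitatory list, Camk2a was the 1 of 5 excitatory neuron markers with a peak (14 peaks), and the markers of inhibitory neurons (3), astrocytes (4), microglia (3) and vascular cells (3) had 0.

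Other genes of the pathway, a list of 61 symbols (2 genes under both an older and a newer symbol) for processing factors, deadenylases, decapping factors and Argonaute partners, were targeted in the same lists. In reps 1-4, 52 of 61 had a peak and 50 a CDS or UTR peak, in reps 5-7 11 had a peak, in the excitatory list 4 and in IgG 0. The 5 with the most CDS and UTR peaks in reps 1-4 were the chaperone gene Hsp90ab1 (96), the helicase gene Ddx5 (68), the RNA-binding protein gene Pum2 (52), the deadenylase gene Cnot6l (37) and the decapping enzyme gene Dcp2 (37). Tnrc6b (128) exceeded all of them. Those with an excitatory peak included Eif4enif1 (2 peaks), Lsm14b (1) and Hsp90ab1 (1), of which Eif4enif1 and Lsm14b encode partners of Ddx6. Of 32 tested between reps 5-7 and reps 1-4 and 31 between excitatory and reps 1-4, 0 passed in either direction by Fisher's exact test, with 2 and 1 at an unadjusted p under 0.05, where all genes had 6.49% and 3.00%.

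The genes whose small RNA profile was most like that of the members pooled were mt-Nd4 (Pearson r = 0.622), Hipk3 (0.608), Slc1a2 (0.604), mt-Nd1 (0.603) and Vdac1 (0.599). The measure was the correlation, across 77 small RNAs with at least 100 peaks, of each gene's share of peaks minus the share over all genes, for 724 genes with at least 30 CDS and UTR peaks in reps 1-4. The median over those genes was 0.138. These profiles come from 1 list and share its libraries, and names of 1 seed are not independent points.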

How the data were processed

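Per the calling summaries, the authors pooled the libraries of a group and called peaks on mm10, which the submitters' processing notes also name, with miRBase mouse names and minimums of 3 reads and 2 libraries for a peak. The tools used were not given in the sources used here. Each peak has a deposited score, a whole number of at least 3 that the authors left unscaled and undefined. Depth per library was not given. The deposited annotation gives each peak 1 region and 1 gene symbol. Positions are 1-based.

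The 10 genes and the lists were chosen with earlier results of these data known. All 10 genes were named, with their leading small RNA, their up to 3 highest-scoring CDS or UTR peaks in reps 1-4 and all peaks of the smaller lists. Named besides were the 10 small RNAs with most peaks, pathway genes with an excitatory peak or among the 5 with most peaks, and the 5 most similar profiles. Further peaks and sites were chosen after their values were seen. Values of some genes of the pathway and marker lists are not reported here.

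Shares have Wilson 95% intervals. Gene shares between lists were compared over all genes with at least 10 peaks in both lists together, by Fisher's exact test (scipy 1.17.1), two-sided, with Benjamini-Hochberg adjustment at 0.05, checked on simulated lists. P-values cover counting error only, between pooled lists. Peaks shared between lists had the same small RNA name and at least 1 base in common on 1 strand. Alternatives were region, score, size, overlap and member subsets. Python 3.11.15, pandas 2.3.3, numpy 2.4.6 and matplotlib 3.10.9 were used.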

Additional observations from a re-analysis of the deposited data

How the results depend on the processing

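Of 130 recomputed values, 114 kept their direction and side of the threshold or stayed within the interval of the reported value. The 114 include counts of 0 from settings in which no member could be tested, which could not have changed. No member passed the test of gene shares against reps 1-4, from reps 5-7 or excitatory, under any of the 8 alternatives run, though with lists of equal size 1 and 0 members could be tested. Between excitatory and reps 5-7 no member had enough peaks for a test, except 1 with at least 5 peaks per gene, so the count of 0 there says nothing of the members. Tnrc6b stayed higher in reps 5-7 and in the excitatory list than in reps 1-4 under each alternative that left it tested. The Ago1 difference between excitatory and reps 1-4 turned from 0.123 to -0.00816 percentage points at or above the median score, since its peak has a score of 3. Over all genes, the 55 calls between the anti-Ago2 lists were 0 with CDS and UTR peaks or 3' UTR peaks alone, 21 at or above the median score, 10 at a score of 5 or more and 3 at equal size. Calls between excitatory and reps 1-4, 11, were 4 with CDS and UTR peaks alone, 2 with 3' UTR peaks alone, 3 at a score of 5 or more and 3 at equal size, and the 7 against reps 5-7 ranged from 0 to 4. Of the calls between the anti-Ago2 lists 27 of 55 were higher in reps 5-7, against 31 of 49 with rRNA peaks left out and 58 of 79 with overlapping peaks merged.

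The members' share of reps 1-4 was 0.471% with CDS and UTR peaks alone, 0.562% with 3' UTR peaks alone, 0.281% at or above the median score, 0.314% at a score of 5 or more and 0.200% with overlapping peaks merged. With 3' UTR peaks alone it was 0.824% of reps 5-7 and 1.85% of the excitatory list. The 3' UTR share of CDS and UTR peaks in reps 1-4, 52.7%, was 48.0% without Ago2, 46.4% without Tnrc6b and 58.7% without Tnrc6c. Recovery of reps 5-7 peaks fell to 46.7% with a reciprocal overlap of 50%, and that of excitatory peaks was 100% in reps 1-4 and 100% in reps 5-7 at a score of 5 or more, on 2 peaks. With scores summed, miR-124-3p made 35.1% and let-7 10.9% of the members' total.

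Seed matches at the peaks were not run, since no genome of the build was used here. Leaving out a library was not possible, because lists are pooled. No paired analysis was possible because each list pools its libraries into 1 value per peak. The causes of these shifts were not tested. Small lists limit what can be seen: 3 peaks make 0.0831% of reps 5-7 and 0.392% of the excitatory list.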
